A study of Mus musculus with 8 samples.

Results

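The genes described here are 10 immune checkpoint ligands and receptors: Cd274, Pdcd1lg2, Pdcd1, Ctla4, Havcr2, Lag3, Cd80, Cd86, Vsir and Lgals9. They were chosen by name, with earlier results of these data known. All 10 were among the 15047 gene symbols measured by RNA-Seq in the pancreas of 8 male mice. The groups were 3 C57BL/6 WT mice on low-fat diet (LFD), 3 C57BL/6 WT mice on high-fat diet (HFD), with 60% of its calories from fat, and 2 leptin-deficient C57BL/6J ob/ob mice on standard chow. Diets started at 4 weeks of age and LFD and HFD lasted 10 weeks. According to the study's methods, and not its sample labels, every mouse carried a pancreatic transplant of mT organoids, derived from neoplastic pancreas of engineered mice in which Pdx1-Cre acts in pancreatic epithelium. The tissue may therefore hold host and transplanted cells together, and the ob/ob and LFD mice differ in genotype and in chow, 2 differences that cannot be told apart.

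Immune checkpoints are pairs of a ligand on one cell and an inhibitory receptor, mostly on T cells, that hold back the immune response. Antigen-presenting cells, stromal cells and tumor cells carry the ligands, many of them under the control of interferon gamma, and activated or exhausted T cells carry the receptors. Pancreatic tumors are known for many suppressive myeloid cells and few effector T cells, so ligands and receptors need not move together in this tissue.

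All 10 checkpoint genes had a higher mean in obese than in LFD mice, where obese is the mean of the HFD and ob/ob group means. The values are regularized log2 (rlog) values, on which a difference of 1 is a doubling, and the differences ran from 0.38 for Ctla4 to 1.29 for Cd86, with a median of 0.99 against 0.04 over all genes. None of the 10 passed an adjusted p-value of 0.05 in limma, and neither did any other gene (0% of 15047). At an unadjusted p-value under 0.05, 4 of the 10 were higher, namely Cd86, Vsir, Pdcd1lg2 and Cd80, against 14.5% of all genes, and 0 were lower, against 10.9%. For 3 of the 10 (Pdcd1lg2, Cd86 and Vsir) every obese mouse lay above every LFD mouse, against 9.4% of all genes, and 9.05% were lower without overlap. Among all genes at an unadjusted p-value under 0.05, 2186 were higher and 1639 lower in obese mice, and 1823 were higher and 2109 lower once each mouse was centered on its own median. Under both scalings 4 of the 10 checkpoint genes were at that level. In bulk tissue, a change in the number of cells and a change in the RNA per cell cannot be told apart.

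One mouse weighed on these calls. Without HFD replicate 1, limma gave an adjusted p-value under 0.05 for 6 of the 10 genes (Pdcd1lg2, Havcr2, Cd80, Cd86, Vsir and Lgals9), all higher in obese mice, against 12.8% of all genes. HFD replicate 1 had the lowest mean over the 10 genes of the 5 obese mice, 5.21, which lay just above the 5.15 of LFD replicate 2. The means of the other obese mice were 5.53 and 6.08 in ob/ob and 5.99 and 6.20 in HFD, and those of the other LFD mice were 4.92 and 4.65. Of the 10 genes, 7 had their lowest value of all mice in LFD replicate 3, and 4 had their highest in HFD replicate 3.

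**Figure D1:**
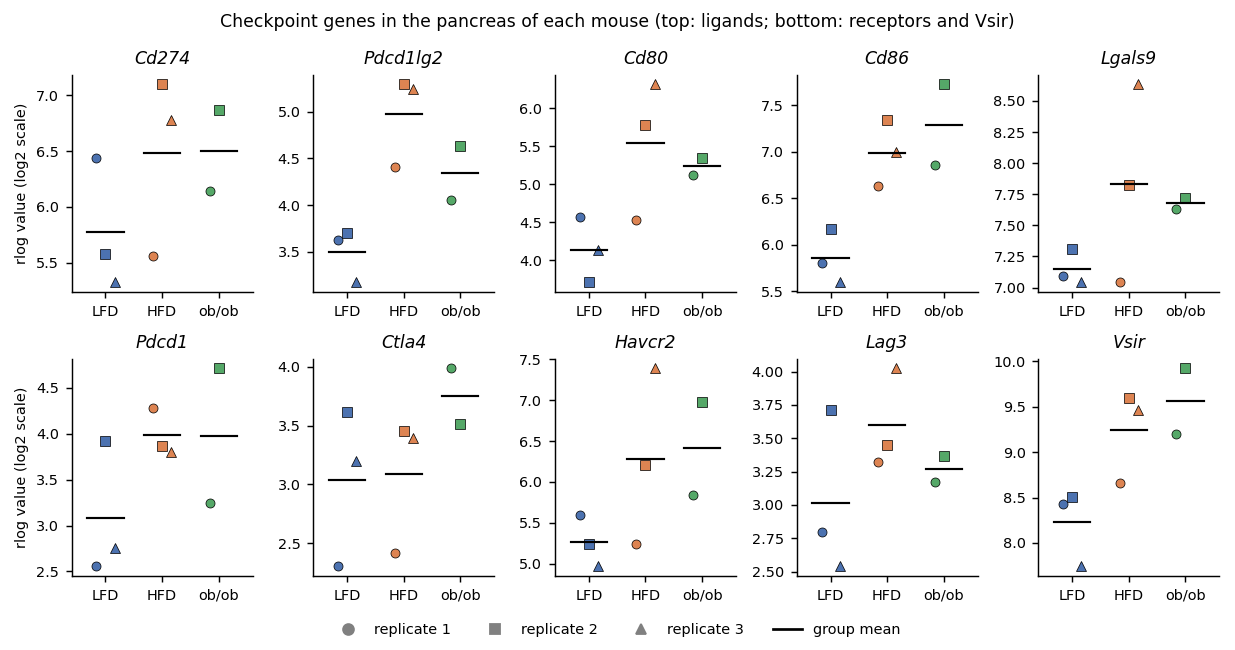
The rlog value (log2 scale, vertical axis) of each of the 10 checkpoint genes in each mouse, with LFD, HFD and ob/ob mice side by side, marker shapes for replicate numbers and a bar at each group mean. For Pdcd1lg2, Cd86 and Vsir every HFD and ob/ob mouse lies above every LFD mouse, and for Havcr2, Cd80 and Lgals9 both ob/ob mice do and HFD replicate 1 does not.

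The PD-1 ligands are described side by side, and no test compared them with each other. Cd274 encodes PD-L1, which interferon gamma induces on many cell types, and lies on chromosome 19 (29367455 to 29388095, plus strand). Pdcd1lg2 encodes PD-L2, found mainly on dendritic cells and macrophages, and lies 22823 bases further on (29410919 to 29471161, plus strand), with 0 protein-coding genes between them. The 250 bases before the start of each are shown because both genes are neighbors on the same strand and were read for the same motifs. They come from the RefSeq table on GRCm38.p6, at chr19:29367188-29367437 for Cd274 and chr19:29410669-29410918 for Pdcd1lg2.
Cd274: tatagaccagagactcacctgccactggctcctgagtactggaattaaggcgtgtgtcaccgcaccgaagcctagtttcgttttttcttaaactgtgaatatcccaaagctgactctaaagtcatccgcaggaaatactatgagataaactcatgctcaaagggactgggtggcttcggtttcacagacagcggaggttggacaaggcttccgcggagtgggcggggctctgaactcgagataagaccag
Pdcd1lg2: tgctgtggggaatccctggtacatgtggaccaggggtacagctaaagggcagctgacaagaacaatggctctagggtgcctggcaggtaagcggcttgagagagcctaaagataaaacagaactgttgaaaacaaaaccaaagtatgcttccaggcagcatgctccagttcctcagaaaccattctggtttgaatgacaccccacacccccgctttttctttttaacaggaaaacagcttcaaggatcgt
These windows held none of 5 motifs searched on both strands, spelled GAAA followed by any 2 bases and GAAA (interferon-response type), TTCNNNGAA (GAS type), TGANTCA (AP-1), GAGGAAG (PU.1 type) and GGGA followed by any base and TTTCC (NF-kB type), and for that reason no base is in capitals. The motifs occurred in 2.98%, 7.02%, 6.75%, 10.6% and 0.356% of the 32851 windows of that length. The absence of a match says only that these letters are not in these windows.

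Pdcd1lg2 rlog values were 3.63, 3.70 and 3.18 in LFD mice, 4.40, 5.29 and 5.24 in HFD mice and 4.06 and 4.63 in ob/ob mice. Every obese mouse was above every LFD mouse, with a gap of 0.36, and the HFD mice held 2 of the 3 highest values. The obese difference was 1.16 (SE 0.31, 95% interval 0.47 to 1.86, a fold of 2.24), with a limma adjusted p of 0.108. Cd274 rlog values were 6.44, 5.58 and 5.32 in LFD mice, 5.56, 7.10 and 6.78 in HFD mice and 6.14 and 6.87 in ob/ob mice. The groups overlapped, since LFD replicate 1 exceeded HFD replicate 1 and ob/ob replicate 1. The obese difference of Cd274 was 0.71 (SE 0.42, interval -0.24 to 1.67, limma adjusted p = 0.299). An antisense gene of Gencode shares 511 exon bases with Cd274, and it has no row of its own among the measured genes.

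Pdcd1 encodes the receptor PD-1 of both ligands, which activated and exhausted T cells carry, and lies on chromosome 1 (94038305 to 94052553, minus strand). Its rlog values were 2.56, 3.92 and 2.76 in LFD mice, 4.28, 3.87 and 3.80 in HFD mice and 3.25 and 4.71 in ob/ob mice. LFD replicate 2 lay as high as the HFD mice, and the other LFD mice were the lowest of all. The obese difference was 0.91 (SE 0.43, interval -0.07 to 1.89, limma adjusted p = 0.221). LFD replicate 2 also had the highest T cell and B cell marker means of the LFD mice, and without it the difference of Pdcd1 was 1.33 (limma adjusted p = 0.244), while without ob/ob replicate 2 it was 0.54 (adjusted p = 0.539). The part of those cells in the result was not tested.

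The B7 proteins CD80 and CD86 stand on antigen-presenting cells and bind the activating receptor CD28 and, more tightly, the inhibitory receptor CTLA-4. Both genes lie on chromosome 16, Cd80 at 38455561 to 38496335 on the plus strand and Cd86 at 36603869 to 36666081 on the minus strand, with 25 protein-coding genes between them. Cd86 rlog values were 5.80, 6.17 and 5.59 in LFD mice, 6.63, 7.34 and 7.00 in HFD mice and 6.86 and 7.72 in ob/ob mice. The obese and LFD mice did not overlap, here with the widest gap of the 10 genes, 0.46. The obese difference of Cd86, 1.29 (SE 0.28, interval 0.65 to 1.92, a fold of 2.44), had the smallest limma adjusted p of the 10 genes, 0.0939. Without ob/ob replicate 1 that adjusted p was 0.0468, against 1.94% of all genes called higher in the same fit, where the 1 ob/ob mouse left is assumed to vary like the other groups.

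Cd80 rlog values were 4.57, 3.71 and 4.14 in LFD mice, 4.53, 5.79 and 6.31 in HFD mice and 5.13 and 5.35 in ob/ob mice. Of the obese mice, only HFD replicate 1 lay within the LFD range, just under LFD replicate 1. The obese difference was 1.25 (SE 0.41, interval 0.31 to 2.19, limma adjusted p = 0.133). Ctla4, their inhibitory receptor and a gene of activated and regulatory T cells, lies on chromosome 1 (60887000 to 60915832, plus strand). Its rlog values were 2.30, 3.61 and 3.20 in LFD mice, 2.42, 3.46 and 3.40 in HFD mice and 3.98 and 3.51 in ob/ob mice. LFD and HFD covered the same range, and the ob/ob mice lay near or above its top. The obese difference of Ctla4, 0.38 (SE 0.38, interval -0.49 to 1.25, limma adjusted p = 0.540), was the smallest of the 10. It ranged from 0.01 without LFD replicate 1 to 0.67 without LFD replicate 2. Cd28, the activating receptor for both B7 proteins, had a difference of 0.53 (SE 0.32, limma adjusted p = 0.304).

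Havcr2 encodes TIM-3, an inhibitory receptor of exhausted T cells that macrophages and dendritic cells carry too, and Lgals9 encodes galectin-9, one of its ligands. Both lie on chromosome 11, Havcr2 at 46454935 to 46481255 on the plus strand and Lgals9 at 78962974 to 78984946 on the minus strand. The 250 bases before each RefSeq start, chr11:46454681-46454930 for Havcr2 and chr11:78984925-78985174 for Lgals9, are shown as a receptor and ligand pair whose windows hold matches. Capitals mark the matches, and each sequence runs along its gene's strand.
Havcr2: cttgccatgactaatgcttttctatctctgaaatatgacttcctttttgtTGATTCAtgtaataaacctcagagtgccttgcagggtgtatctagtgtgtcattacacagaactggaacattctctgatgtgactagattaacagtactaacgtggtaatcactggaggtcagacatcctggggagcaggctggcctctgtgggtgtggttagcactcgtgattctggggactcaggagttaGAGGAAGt
Lgals9: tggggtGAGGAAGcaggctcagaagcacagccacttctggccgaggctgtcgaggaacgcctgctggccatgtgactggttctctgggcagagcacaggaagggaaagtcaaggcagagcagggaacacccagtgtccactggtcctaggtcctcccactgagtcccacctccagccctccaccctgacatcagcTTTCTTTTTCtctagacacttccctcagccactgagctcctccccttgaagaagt
Havcr2 had TGATTCA (AP-1) from -200 to -194 and GAGGAAG (PU.1 type) from -8 to -2, counted from the start. Lgals9 had GAGGAAG from -244 to -238 and, on the opposite strand, the interferon-response type from -55 to -46. Of the 8 checkpoint genes with a window, Lgals9 was the 1 with that type. A match describes the letters and not a bound site.

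Havcr2 rlog values were 5.60, 5.24 and 4.97 in LFD mice, 5.23, 6.20 and 7.39 in HFD mice and 5.85 and 6.97 in ob/ob mice. The HFD mice spread over more than 2 units, from within the LFD range to the highest value of all mice. The obese difference was 1.07 (SE 0.48, interval -0.03 to 2.18, limma adjusted p = 0.204). Lgals9 rlog values were 7.09, 7.31 and 7.04 in LFD mice, 7.04, 7.82 and 8.63 in HFD mice and 7.64 and 7.72 in ob/ob mice. Again HFD replicate 1 sat among the LFD mice and HFD replicate 3 was the highest. The obese difference of Lgals9 was 0.61 (SE 0.32, interval -0.12 to 1.34, limma adjusted p = 0.260). Ceacam1, another ligand of TIM-3, differed by -0.10 (SE 0.30, limma adjusted p = 0.853).

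Lag3 encodes LAG-3, an inhibitory receptor of T cells that binds MHC class II, and lies on chromosome 6 (124904361 to 124911705, minus strand). Its rlog values were 2.80, 3.72 and 2.54 in LFD mice, 3.32, 3.45 and 4.02 in HFD mice and 3.17 and 3.36 in ob/ob mice. LFD replicate 2 was second only to HFD replicate 3, so the groups overlapped. The obese difference was 0.42 (SE 0.33, interval -0.33 to 1.16, limma adjusted p = 0.431), and it ranged from 0.18 without LFD replicate 3 to 0.76 without LFD replicate 2 (adjusted p = 0.819 and 0.262).

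Vsir encodes VISTA, which acts as a ligand and as a receptor and is most abundant on myeloid cells. It lies on chromosome 10 (60346851 to 60372684, plus strand), inside the gene Cdh23 on the other strand, with which it shares 0 exon bases. Its rlog values were 8.43, 8.51 and 7.74 in LFD mice, 8.66, 9.60 and 9.47 in HFD mice and 9.20 and 9.92 in ob/ob mice. The lowest obese mouse stood above the highest LFD mouse, with a gap of 0.15 set by HFD replicate 1. The obese difference was 1.17 (SE 0.29, interval 0.51 to 1.84, a fold of 2.26), with a limma adjusted p of 0.107.

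Levels can be compared between genes once length is removed. On the log2 scale of rlog per kilobase of exon, averaged over the 8 mice, Vsir (6.62) and Lgals9 (6.44) stood highest, above 79.9% and 77.4% of genes. Cd86 (4.77), Havcr2 (4.49) and Cd274 (4.37) lay in the middle, and Pdcd1lg2 (3.29) and Cd80 (3.05) followed. The T cell receptors Pdcd1 (2.70), Lag3 (2.22) and Ctla4 (2.01) were the lowest of the 10, and Ctla4 was above 12.3% of genes. Within groups Lgals9 (6.05) was above Vsir (5.90) in LFD mice, and Ctla4 (2.53) above Lag3 (2.19) in ob/ob mice. Neighbors in this order lay within the larger of their SDs over the 8 mice, except for the steps from Lgals9 to Cd86 and from Cd274 to Pdcd1lg2. The rlog transformation shrinks differences most for such low genes.

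HFD and ob/ob are different routes to obesity, and each was compared with LFD. Both comparisons share the LFD mice. Against LFD, the HFD difference was highest for Pdcd1lg2 (1.48, SE 0.34, limma adjusted p = 0.176) and Cd80 (1.40, SE 0.46, adjusted p = 0.194), followed by Cd86 (1.14) and Vsir (1.02), and lowest for Ctla4 (0.05). At an unadjusted p-value under 0.05, these first 4 of the 10 were higher in HFD, against 11.5% of all genes, and 0 were lower, against 8.35%. In 3 of the 10 (Pdcd1lg2, Cd86 and Vsir) the HFD mice were above all LFD mice, against 12.9% of all genes, and in 0 below them, against 12.3%. Ctla4 turned to -0.03 with median centering and -0.04 with quantile normalization. Without HFD replicate 1 limma called 5 of the 10 in HFD (Pdcd1lg2, Cd80, Cd86, Vsir and Lgals9) at an adjusted p-value under 0.05, against 10.8% of all genes.

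The ob/ob difference against LFD was highest for Cd86 (1.44, SE 0.35, limma adjusted p = 0.174) and Vsir (1.33, SE 0.36, adjusted p = 0.192) and lowest for Lag3 (0.25). Cd86 and Vsir were the 2 of 10 that were higher at an unadjusted p-value under 0.05, against 11.6% of all genes, and 0 were lower, against 7.18%. In 6 of the 10 (Pdcd1lg2, Havcr2, Cd80, Cd86, Vsir and Lgals9) both ob/ob mice were above all LFD mice, against 24.1% of all genes, and in 0 below them, against 21.8%. None of the 10 had an adjusted p-value under 0.05 in limma in either comparison (0% of all genes in both).

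Between the obese models, ob/ob was higher than HFD in 5 of the 10 and lower in 5, from -0.63 for Pdcd1lg2 (interval -1.50 to 0.23) to 0.66 for Ctla4 (interval -0.42 to 1.74). None of the 10 had an unadjusted p-value under 0.05 in limma (2.28% of all genes were higher and 1.63% lower), and none had an adjusted one (0% of all genes). Ctla4 was the 1 gene of the 10 in which both ob/ob mice were above all HFD mice, by 0.06, against 7.92% of all genes, and 5.42% were below without overlap. These intervals span more than 1 unit on either side of 0 for several genes, so differences of that size were not excluded.

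**Figure D2:**
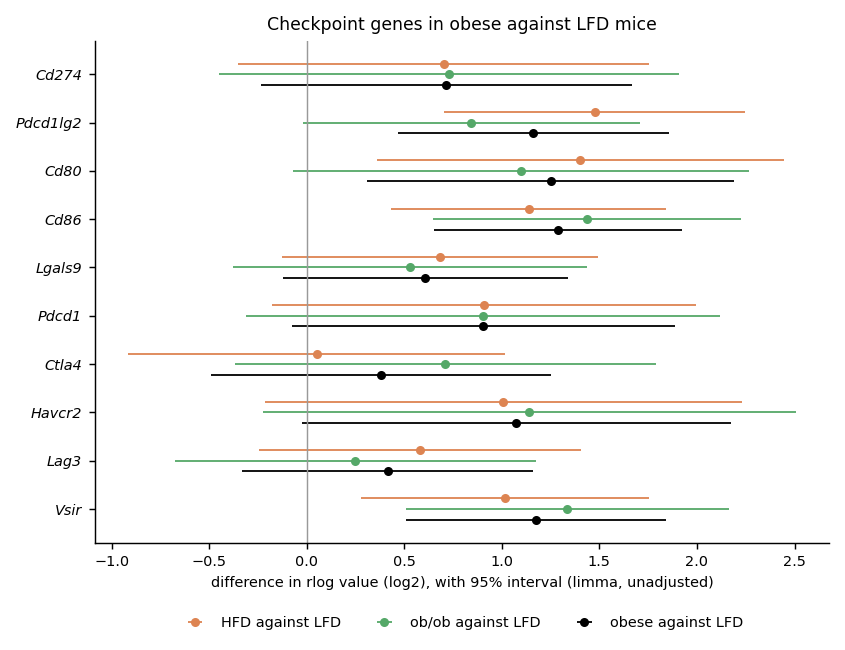
Difference in rlog value (log2 scale, horizontal axis) of each checkpoint gene in the comparisons of HFD, ob/ob and all obese mice with LFD mice, with the estimate as a point and its limma 95% interval as a line. The estimates are all above 0.

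Marker RNA of several cell types also differed between the mice, with 0 genes at an adjusted p-value under 0.05 in limma. Ptprc, the pan-leukocyte gene CD45, was higher in obese than LFD mice by 0.97 (SE 0.32, limma adjusted p = 0.132). By flow cytometry, a measure unlike RNA, the study reported a lower share of CD45+ cells in mT pancreata of obese than of LFD mice. As shares of CD45+ cells, it also reported fewer T lymphocytes and dendritic cells there. By immunohistochemistry it reported fewer CD8+ and more Ly6G+ cells in obese mice. All 10 macrophage markers had a higher mean in obese mice, 9 of 10 at an unadjusted p-value under 0.05. At that level 14.5% of all genes were higher and 10.9% lower. The mean of the macrophage list ranged from 9.09 to 9.47 in LFD, 9.82 to 10.9 in HFD and 10.6 to 11.3 in ob/ob mice. All 7 neutrophil markers measured were higher at that level (Ly6g was absent), from 5.0 to 5.67 in LFD, 6.43 to 7.70 in HFD and 6.24 to 6.55 in ob/ob mice. Of 10 T cell markers 8 were higher and 0 passed that level, with list means of 3.35 to 4.96 in LFD, 4.01 to 4.30 in HFD and 4.11 to 4.47 in ob/ob mice. Dendritic cell markers overlapped between groups, at 4.79 to 5.54 in LFD, 5.42 to 6.01 in HFD and 5.33 to 5.74 in ob/ob mice, and only Itgax (1.61) of 8 passed that level. All 21 acinar markers, genes of digestive enzyme cells, were lower in obese mice, 2 of them at that level, and their mean was 18.1 to 18.5 in LFD, 14.3 to 18.4 in HFD, highest in replicate 1, and 14.7 to 17.7 in ob/ob mice. Fibroblast markers were higher in 9 of 10 genes, 8 of them at that level.

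**Figure D3:**
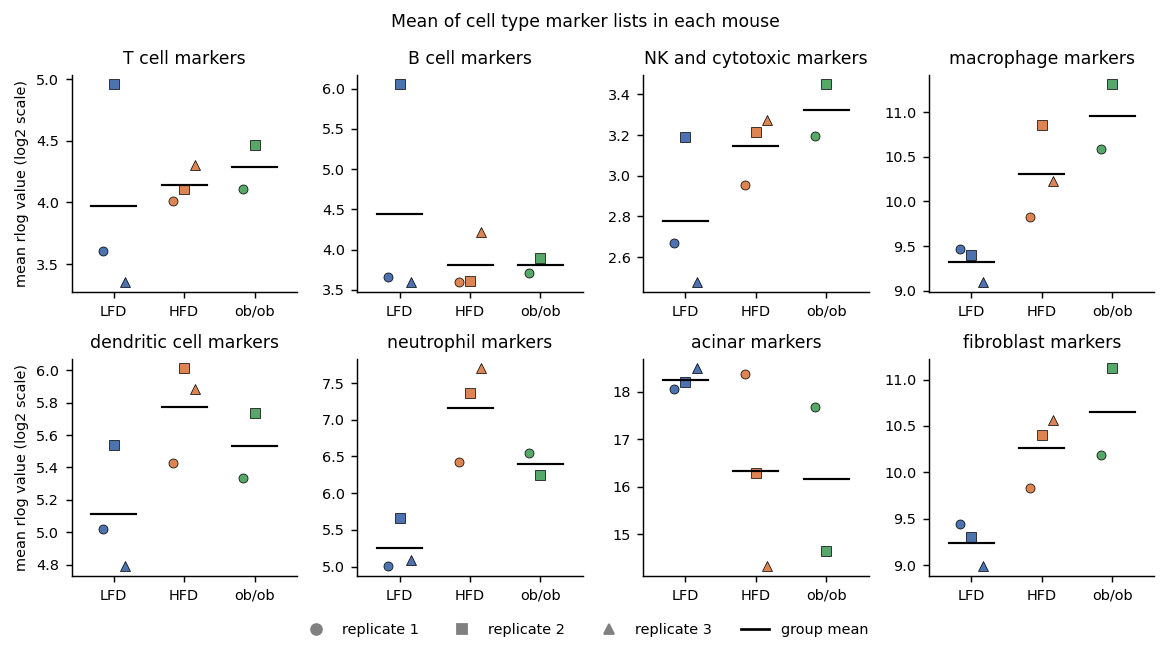
Mean rlog value (log2 scale, vertical axis) of 8 cell type marker lists in each mouse, by group, with marker shapes for replicate numbers and a bar at each group mean. Macrophage, neutrophil and fibroblast means are higher in all HFD and ob/ob mice than in LFD mice, and T and B cell means are highest in LFD replicate 2.

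With the acinar mean of each mouse as a covariate in limma, 3 of the 10 checkpoint genes were higher in obese mice at an unadjusted p-value under 0.05, against 6.87% of all genes. They were Cd86 (0.95), Pdcd1lg2 (0.74) and Vsir (0.72), while Cd274, Havcr2 and Lgals9 had differences of 0.12, 0.11 and 0.08. With Ptprc as the covariate, 0 of the 10 passed that level in limma, against 2.48% of all genes, and 0 passed an adjusted p-value of 0.05. The differences then ran from -0.34 for Lag3 to 0.76 for Cd80 and 0.76 for Cd86. Lag3, Ctla4, Lgals9 and Cd274 had estimates below 0 on that basis, at -0.34, -0.08, -0.05 and -0.03. Each lay within its SE of 0 (0.37, 0.56, 0.39 and 0.54), so no direction was shown. Ptprc itself was higher in obese mice by 0.97, so this covariate shares part of the group difference.

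Each checkpoint gene was also set against the mean of a marker list of a cell type that carries it, the T cell list for Pdcd1, Ctla4 and Lag3 and the macrophage list for the others. For this value alone, obese is the mean of the 5 obese mice. On that relative log2 scale 5 of the 10 were higher and 5 lower in obese mice, or 3 higher and 7 lower with the mean of the group means, and 0 of 10 had a p under 0.05 in a two-sided exact permutation test of 5 obese against 3 LFD mice, whose smallest possible p is 0.0357. Cd86, Pdcd1lg2, Cd80 and Vsir, the genes with the largest absolute differences, had relative differences of 0.01, -0.02, 0.04 and -0.10 over the 5 mice and of -0.02, -0.15, -0.06 and -0.13 over the group means. Pdcd1 had the largest, 0.68 (exact p = 0.0714, 1 of 10 such tests), with 4 of 5 obese mice above all LFD mice, and its difference turned to -0.06 against Ptprc alone. Its relative values were -1.05, -1.04 and -0.59 in LFD mice, 0.27, -0.24 and -0.50 in HFD mice and -0.86 and 0.24 in ob/ob mice. Relative to macrophage markers, the difference of Lgals9 was -0.62 (exact p = 0.214) and that of Cd274 was -0.53 (exact p = 0.214). With dendritic cell markers in place of macrophage markers, Cd86 (0.69) and Pdcd1lg2 (0.66) were higher in all 5 obese mice than in LFD mice, each at the smallest exact p of 0.0357. Both p-values are of this alternative list and are not adjusted over the 10 genes. Without any list, both genes were already higher in every obese mouse than in every LFD mouse.

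**Figure D4:**
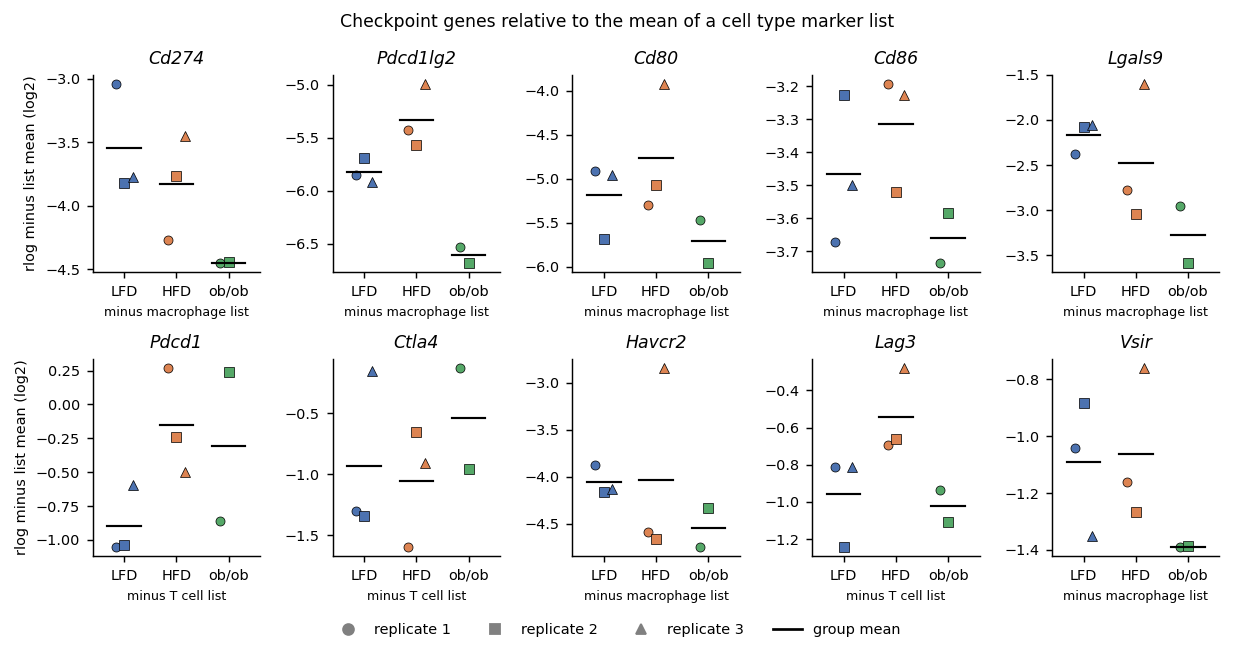
Value of each checkpoint gene minus the mean of its marker list (log2 scale, vertical axis) in each mouse, by group, with the list named under each panel and a bar at each group mean. For Pdcd1, 4 of the 5 obese mice lie above the LFD mice, and for Pdcd1lg2 the HFD mice lie above and the ob/ob mice below the LFD mice.

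The wider checkpoint system was read through 34 other inhibitory and costimulatory genes, of which 29 were measured (Cd160, Tigit, Cd40lg, Cd70 and Ido1 were absent). Of these 29, 25 had a higher mean in obese mice and 4 a lower one, with a median of 0.53. At an unadjusted p-value under 0.05, 9 were higher and 0 lower in limma, against 14.5% and 10.9% of all genes, and 0 passed the adjusted threshold. The largest difference was that of Nt5e (1.70, SE 0.55, limma adjusted p = 0.130), which encodes the adenosine-producing enzyme CD73. Entpd1, which encodes CD39 upstream of it, had the lowest (-0.39, SE 0.39). Lgals3, which encodes galectin-3, differed by 1.68 (SE 0.36, limma adjusted p = 0.0926), and Cd200r1, an inhibitory receptor of myeloid cells, by 1.53 (SE 0.29, limma adjusted p = 0.0853). Cd200r1 rlog values were 5.39, 4.70 and 4.62 in LFD mice, 6.27, 6.63 and 5.93 in HFD mice and 6.30 and 6.87 in ob/ob mice, without overlap. Of the pair that restrains phagocytosis, the receptor Sirpa differed by 1.16 and its ligand Cd47 by 0.46. The costimulatory receptors Tnfrsf9 (1.40) and Cd244a (1.32) and the ligands Tnfsf18 (0.72) and Tnfsf4 (0.66) made up the rest of the 9.

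**Figure D5:**
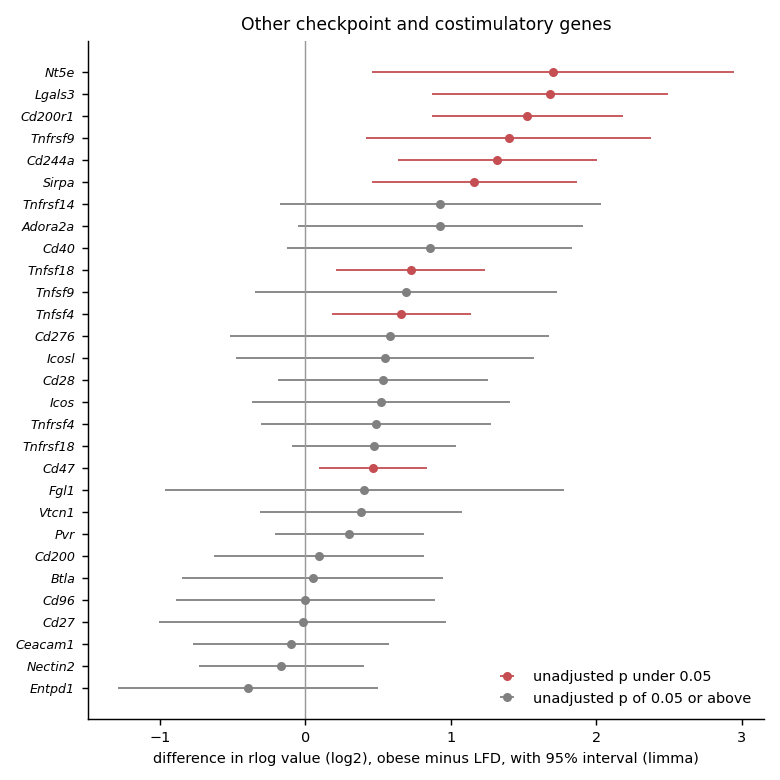
Difference in rlog value between obese and LFD mice (log2 scale, horizontal axis) of the 29 other checkpoint and costimulatory genes measured, with the estimate as a point and its limma 95% interval as a line. Nt5e (1.70) is the highest, Entpd1 (-0.39) is the lowest, and 25 of the 29 estimates are above 0.

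Interferon gamma is a known inducer of Cd274 and of several other ligands, and 13 of 15 genes of its pathway were measured (Ifng itself and Socs1 were absent). All 13 had a higher mean in obese mice, and 6 passed an unadjusted p-value of 0.05 in limma, against 14.5% of all genes. The highest were Ciita (a fold of 2.33), the master regulator of MHC class II genes, Cxcl9 (2.13), a chemokine for T cells, and Irf8 (2.09), a transcription factor of myeloid cells. Irf1 (0.49, SE 0.27, limma adjusted p = 0.277), a transcription factor of the pathway, was not among the 6. Of 10 phosphatases and kinases that act below the receptors, 9 were higher and 0 passed that level.

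The checkpoint genes varied together over the 8 mice to unlike degrees, and every pair correlated positively. As a description, Pearson's r was highest between Cd86 and Vsir (0.967) and between Havcr2 and Lgals9 (0.903), and lowest between Cd274 and Ctla4 (0.194). Among pairs without Pdcd1, Ctla4 and Lag3, the lowest r was 0.644, between Cd86 and Lgals9. The PD-1 ligands had an r of 0.773 with each other, and Cd274 had one of 0.277 with Pdcd1. All these points share libraries and the spread in acinar RNA between the mice.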

How the data were processed

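Pancreas RNA of 8 mice was sequenced, and mice were grouped by the sample labels. The authors quantified transcripts of Gencode M18 (GRCm38.p6) with Salmon 0.11.3, summarized them per gene with tximport, and deposited rlog values of DESeq2 1.22.2, that is, library-size corrected values on the log2 scale. The filter that left 15047 symbols, and whether rlog used the groups, are not given in the sources used here. Counts were not used, so depth is unknown and the only error is the spread between mice. Salmon divides reads among similar transcripts by estimation, and whether it used the strand is not given in the sources used here.

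The values ranged from 0.466 to 24.3. Group means were fitted to all 8 mice with limma 3.58.1 in R 4.3.3, with the empirical Bayes step and a trend on the mean, and p-values were adjusted over all genes by Benjamini-Hochberg. This replaces the count model of the study. The step was tested on simulated data. Values relative to marker lists were compared by exact permutation. Coordinates and lengths are from Gencode M21 on GRCm38, which held 14936 of 15047 symbols, and promoter windows from RefSeq on GRCm38.p6 (8 of 10 genes, without Lag3 and Cd86).

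The 10 genes and the lists were chosen with earlier results of these data known. All 10 are named, with up to 3 genes with the highest and 2 with the lowest obese difference of each list, up to 12 of the other checkpoint genes with an unadjusted p-value under 0.05, ligands or receptors of the 10, and the 3 genes with the highest Pearson r for each of the 10. The alternatives were a variance with no trend, only the groups compared, a mean rlog value of at least 5, median centering, quantile normalization, the replicate block, acinar and Ptprc covariates, other marker lists, and each mouse left out. Some items, among them alleles of the transplant and values of single genes, are not reported here.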

Additional observations from a re-analysis of the deposited data

Results flagged for a closer look

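Relative to the macrophage marker list, Pdcd1lg2 lay above every LFD mouse in all 3 HFD mice and below every LFD mouse in both ob/ob mice, which is why it is listed. The relative values (log2 scale) were -5.85, -5.69 and -5.92 in LFD mice, -5.42, -5.57 and -4.99 in HFD mice and -6.53 and -6.68 in ob/ob mice. The ob/ob mean was lower than the HFD mean by -1.28, and this difference was not tested. Against the dendritic cell markers both obese groups lay above LFD, by 0.82 in HFD and 0.42 in ob/ob mice, and against Ptprc alone the differences from LFD were 0.53 and -0.15, so the opposite directions in every mouse appeared with the macrophage list.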

How the results depend on the processing

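The number of the 10 checkpoint genes higher at an unadjusted p-value under 0.05 in limma was 4 in HFD, 2 in ob/ob, 0 between them and 4 in obese mice. It was 6 in ob/ob with only the groups compared (14.8% of all genes, against 11.6%). A minimum mean rlog of 5 left 5 of the 10, without Pdcd1lg2, Cd80, Pdcd1, Ctla4 and Lag3. Of these 5, 2 were higher in HFD and 2 in obese mice, against 11.4% and 14.7% of the genes left. The number was 2 in HFD with the acinar covariate (6.25% of all genes). With the Ptprc covariate it was 0 in HFD, ob/ob and obese mice (2.1%, 2.73% and 2.48%). The Ptprc covariate also gave 3 other checkpoint genes against 9. With dendritic cell markers 2 genes had an unadjusted exact p under 0.05 relative to the list instead of 0. Leaving out each mouse gave 3 to 7 genes in HFD (6.04% to 19.8% of all genes were higher), 1 to 5 in ob/ob (4.03% to 15.4%), 4 to 7 in obese mice (8.44% to 21.2%), 0 to 1 between ob/ob and HFD, the 1 being lower in ob/ob (4.17% of all genes), and 8 to 16 of the other checkpoint genes. The counts at an adjusted p-value under 0.05 ranged from 0 to 5 in HFD, 0 to 6 in obese mice and 0 to 0 in the other comparisons. The highest counts came without HFD replicate 1, apart from ob/ob against LFD, which also reached 5 without ob/ob replicate 1, where the lone ob/ob mouse is assumed to vary like the other groups.

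With the acinar covariate the number of all genes higher in obese mice at an unadjusted p-value under 0.05 was 1033, and with the Ptprc covariate 373, against 2186. It ranged from 1270 without LFD replicate 3 to 3188 without HFD replicate 1.

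Some differences near 0 changed sign. With the Ptprc covariate, those from LFD became -0.022 in HFD, -0.033 in ob/ob and -0.027 in obese mice for Cd274, -0.39 in HFD and -0.076 in obese mice for Ctla4, -0.16, -0.53 and -0.34 for Lag3, and -0.14 in ob/ob and -0.051 in obese mice for Lgals9, and that between ob/ob and HFD became -0.011 for Cd274. With the acinar covariate they were -0.12 for Ctla4 in HFD, -0.043 for Lag3 and -0.018 for Lgals9 in ob/ob, and -0.025 for Cd274 between ob/ob and HFD. Ctla4 in HFD was -0.031 with median centering and -0.044 with quantile normalization, which gave -0.025 for Cd274 between ob/ob and HFD. Relative values became -0.65 for Ctla4, 0.096 for Havcr2, -0.52 for Lag3, -0.059 for Pdcd1, 0.26 for Pdcd1lg2 and 0.18 for Vsir against Ptprc alone, 0.15 for Cd274, 0.50 for Havcr2, 0.058 for Lgals9, 0.66 for Pdcd1lg2 and 0.58 for Vsir against dendritic cell markers, -0.13 for Ctla4 with the T cell markers at a mean rlog of 5 or more, and -0.34 for Cd80 and -0.28 for Cd86 with quantile normalization. With obese as the mean of the group means, chosen after seeing the data, they were -0.057 for Cd80 and -0.021 for Cd86. The cause was not tested.

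Leaving out each mouse, the ob/ob minus HFD difference ranged from -0.43 to 0.39 for Cd274, -0.81 to 0.082 for Cd80, -0.13 to 0.73 for Cd86, -0.43 to 0.70 for Havcr2, -0.55 to 0.25 for Lgals9, -0.74 to 0.72 for Pdcd1 and -0.041 to 0.68 for Vsir, and that of Ctla4 in HFD from -0.32 to 0.39. Relative values ranged from -0.27 to 0.24 for Cd80, -0.089 to 0.13 for Cd86, -0.12 to 0.48 for Ctla4, -0.23 to 0.19 for Pdcd1lg2 and -0.23 to 0.0044 for Vsir, with no test, since fewer mice cannot reach a p of 0.05 there.

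Replicate numbers were not taken as pairs, since the mice are different animals. Of 7 pairs with the same number 4 had a correlation over 0.1, from -0.28 to 0.59, and 3 of 8 mice correlated best with their own number. These correlations are of deviations from group means, which are exact opposites in the 2 ob/ob mice, so they cannot decide on pairing. With the replicate block, 4, 3, 0 and 5 genes were at an unadjusted p-value under 0.05 in the 4 comparisons (12.7%, 12.5%, 1.89% and 15.7% of all genes were higher), and ob/ob minus HFD became -0.013 for Cd274 and 0.020 for Lgals9.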

Other observations

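Other cell types were read from lists of the same kind between obese and LFD mice. B cell markers had a lower mean in 7 of 8 genes and 0 passed an unadjusted p-value of 0.05 in limma, with a list mean of 6.05 in LFD replicate 2 against 3.59 to 4.22 in the other mice. Of 6 NK and cytotoxic markers (Ncr1 and Gzma were absent) all had a higher mean, and Klrk1, an activating receptor, was the 1 past that level, with a fold of 2.33. Of 3 regulatory T cell markers (Foxp3 and Ccr8 were absent), Il2ra had a higher mean and Ikzf2 and Ikzf4 a lower one. Ikzf2, at -0.61 (limma adjusted p = 0.127), was below every LFD mouse in each obese mouse, as were 9.05% of all genes. Its mean rlog over the 8 mice was 8.05, against 3.71 for Il2ra and 2.76 for Ikzf4, and the cells it came from were not tested. Ductal and epithelial markers had 2 of 10 genes higher and 1 lower at that level, adipocyte markers had 1 of 8 higher and 1 lower, and endothelial markers had 0. Of all genes, 14.5% were higher and 10.9% lower in obese mice at that level. Islet markers had 0 of 10 for obese mice as a whole. In HFD mice all 10 had a lower mean than in LFD mice, 0 at that level, against 8.35% of all genes. The ob/ob mice exceeded LFD mice at that level for 6 of the 10, against 11.6% of all genes. They exceeded HFD mice for 7 of the 10, against 2.28% of all genes.

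The genes whose rlog values ran closest to each checkpoint gene over the 8 mice, among genes whose mean rlog was 5 or more, are given as a description. Pdcd1lg2 was closest to Il1rn (Pearson's r = 0.994) and Il1a (0.980), an antagonist and an agonist of the interleukin-1 receptor, and to Hist1h4k (0.980). Cd86 was closest to H2-DMa and Plekho1 (each 0.990), of which H2-DMa loads peptides onto MHC class II. Vsir was closest to Itpripl1 (0.996), Pros1 (0.994) and Tep1 (0.992), and Cd80 to Prdm1 (0.982), S100a11 (0.978) and Adam12 (0.978). Cd274 was closest to Rbms3 (0.989), Havcr2 to B4galt5 (0.991), Lgals9 to Palld (0.988), Lag3 to H2-T24 (0.981), Pdcd1 to Nfatc4 (0.956) and Ctla4 to Phf14 (0.949).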
